A study of Mus musculus with 8 samples.

Results

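The genes described here are 10 immediate early genes that do not encode AP-1 subunits: Egr1, Egr2, Egr3, Nr4a1, Nr4a2, Nr4a3, Arc, Ier2, Btg2 and Dusp1. They were picked by name from the 52281 named loci of the expression table because most of them moved in opposite directions in the 2 knockouts of the study, so their values in all 8 libraries entered the choice and are given as a description with no test. All 10 were found, each at a locus that carries its name alone, and all 10 passed the filter on low values, which kept 16623 loci. The samples were embryoid bodies, aggregates of differentiating mouse embryonic stem cells, collected at day 9 on a C57BL/6 strain background and grown in medium with serum. There were 4 groups of 2 libraries. The Prdm16 knockout (genotype PRDM16 KO) had its own wild-type set, called the Prdm16 control here, and the knockout of the PR domain, for which the titles name exon 4, had a second wild-type set, called the PR domain control. Both control sets carry the genotype WT in the labels, and no treatment is listed for any group. The labels do not say how many clones stand behind a group or whether replicates were separate cultures, so knockout and clone cannot be told apart. The p-values rest on the spread between libraries of a group, taken more from loci of similar level than from the gene itself.

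Immediate early genes are transcribed within minutes of a stimulus such as serum, a growth factor, depolarisation or mechanical stress, without new protein synthesis. Signals reach them through kinases of the ERK, p38 and RSK families and through the factors SRF with its ELK partners and CREB with its CRTC coactivators, which bind the CArG box and the cAMP response element (CRE). Many of their messages are short-lived, and several of their products, such as the DUSP phosphatases and the NAB corepressors of EGR proteins, limit the response.

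Promoters were compared because these genes are known for the short elements next to their start sites. RefSeq windows of GRCm38.p6, from 250 bases before to 50 after a start site, matched 6 of the 10 genes (Egr2, Nr4a1, Nr4a2, Nr4a3, Btg2 and Dusp1). The short CRE motif TGACG, searched on both strands, was in the windows of all 6, against 34.0% of 11303 tested genes with a window and 23.0% of all 27025 genes with one. The full CRE TGACGTCA, which contains the short motif on each strand, was in Btg2 and Dusp1, against 3.44% of the tested genes and 2.03% of all genes. A CArG box was in Egr2 alone among the 6, against 1.59% of the tested genes and 1.81% of all genes. An EGR site, GCGNGGGCG, was in Nr4a1, Nr4a2 and Btg2, against 12.1% of the tested genes and 6.27% of all genes. TATAAA was in Nr4a2, against 9.10% and 15.7%. The 5 stretches printed here show copies of the short CRE motif, the full CRE and the CArG box at 5 of the 6 genes, 5′ to 3′ on the gene's strand and only where no GENCODE exon lies. Capitals mark the short CRE motif, the full CRE or the CArG box. The Nr4a1 stretch is chr15:101266596-101266845 (plus strand), that of Nr4a3 is chr4:48045055-48045152 (plus), that of Dusp1 is chr17:26508520-26508722 (minus), that of Btg2 is chr1:134079156-134079405 (minus) and that of Egr2 is chr10:67537795-67537824 (plus).
Nr4a1: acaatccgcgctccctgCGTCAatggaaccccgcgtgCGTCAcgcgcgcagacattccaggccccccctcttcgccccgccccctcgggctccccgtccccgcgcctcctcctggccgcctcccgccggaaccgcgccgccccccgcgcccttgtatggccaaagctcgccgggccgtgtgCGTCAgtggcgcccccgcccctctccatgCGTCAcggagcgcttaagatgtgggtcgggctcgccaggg
Nr4a3: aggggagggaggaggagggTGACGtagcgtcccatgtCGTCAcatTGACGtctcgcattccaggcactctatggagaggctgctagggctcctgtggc
Dusp1: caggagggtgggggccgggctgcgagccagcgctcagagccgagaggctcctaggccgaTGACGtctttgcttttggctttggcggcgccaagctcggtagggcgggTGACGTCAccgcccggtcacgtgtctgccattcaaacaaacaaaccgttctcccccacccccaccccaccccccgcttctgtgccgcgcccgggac
Btg2: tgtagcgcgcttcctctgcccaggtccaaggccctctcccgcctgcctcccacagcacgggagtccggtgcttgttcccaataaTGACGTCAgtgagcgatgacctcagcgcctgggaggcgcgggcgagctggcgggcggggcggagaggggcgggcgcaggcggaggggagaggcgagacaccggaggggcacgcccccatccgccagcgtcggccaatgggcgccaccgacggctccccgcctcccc
Egr2: gtCCATATATGGgcagcgaCGTCAcgggta
Nr4a1, Nr4a2 and Nr4a3 had 4 copies each of the short CRE motif in their windows, of which 3 lie in the stretch printed for Nr4a3, and the Nr4a2 window is not printed. In Egr2 the CArG box lay 72 to 63 bases before the start site used here, with a short CRE motif 55 to 51 bases before it. A match of letters is a description and not a site of binding.

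The libraries held between 6273789 and 9086885 fragments on named loci, and levels are given as normalised fragments, that is, fragments divided by 1 size factor a library. The targeted gene Prdm16 was low throughout, with 23 and 28 fragments in the Prdm16 control and 9 and 1 in the Prdm16 knockout. It had 44 and 22 fragments in the PR domain control and 26 and 19 in the PR domain knockout. The table counts whole loci, and the deleted bases are not given in the labels, so these values do not check the PR domain deletion. With limma, 6502 loci passed a Benjamini-Hochberg adjusted p of 0.05 in the Prdm16 knockout; 18.0% of all tested loci were higher and 21.1% lower. Of these calls 45.9% were higher, but 55.0% of 6510 calls were with TMM scaling and 39.3% of 6684 with scaling to total fragments, so the direction of the majority turns with the scaling. In the PR domain knockout 3190 loci passed, 8.48% higher and 10.7% lower, so that 44.2% of calls were higher, against 55.3% of 1797 calls with DESeq2. The 2 wild-type sets differed at 5481 loci, with 16.3% higher and 16.7% lower in the PR domain control.

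The Egr genes encode zinc finger transcription factors that bind GC-rich sites. Egr1 was the most abundant of the 10 per length, at 328 ± 3.32 FPKM (SD, n = 2) in the PR domain control. It stood at 3347 and 3289 normalised fragments in the Prdm16 control, 7805 and 7650 in the Prdm16 knockout, with 8499 and 8631 in the PR domain control and 6242 and 6340 in the PR domain knockout. The 4 groups did not overlap, and both libraries of the Prdm16 control were far below the other 6. The log2 fold change, on the scale of log2(value + 1) with the SE of the limma fit, was 1.22 ± 0.03 for the Prdm16 knockout against its control. It was -0.45 ± 0.03 for the PR domain knockout. In bulk libraries, fewer cells that express a gene and less RNA per cell cannot be told apart, which holds for every value here.

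Egr2 (chromosome 10, 67535475 to 67542188 in GENCODE M21 on GRCm38), a paralogue known for its part in hindbrain segments and in Schwann cells, was at 99.7 and 113 normalised fragments in the Prdm16 control and 311 and 290 in the Prdm16 knockout. It had 447 and 472 in the PR domain control and 321 and 304 in the PR domain knockout. The 2 knockouts overlapped, and the widest gap lay between the 2 wild-type sets, at a log2 fold change of 2.104 ± 0.098. Against their own controls the changes were 1.49 ± 0.10 with Prdm16 knocked out and -0.56 ± 0.10 with the PR domain knocked out. Egr3 (chromosome 14, 70077203 to 70082614), known for its part in muscle spindles, stood at 94.4 and 119 in the Prdm16 control, 289 and 274 in the Prdm16 knockout, with 315 and 292 in the PR domain control and 150 and 236 in the PR domain knockout. Its PR domain knockout libraries lay far apart, but the groups did not overlap. The gap between the PR domain control (lowest 292) and the Prdm16 knockout (highest 289) was thin. Egr3 in the Prdm16 knockout was at -0.11 ± 0.14 against the PR domain control, so these 2 groups were not clearly separate. The log2 fold changes of Egr3 were 1.40 ± 0.14 and -0.69 ± 0.14.

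**Figure D1:**
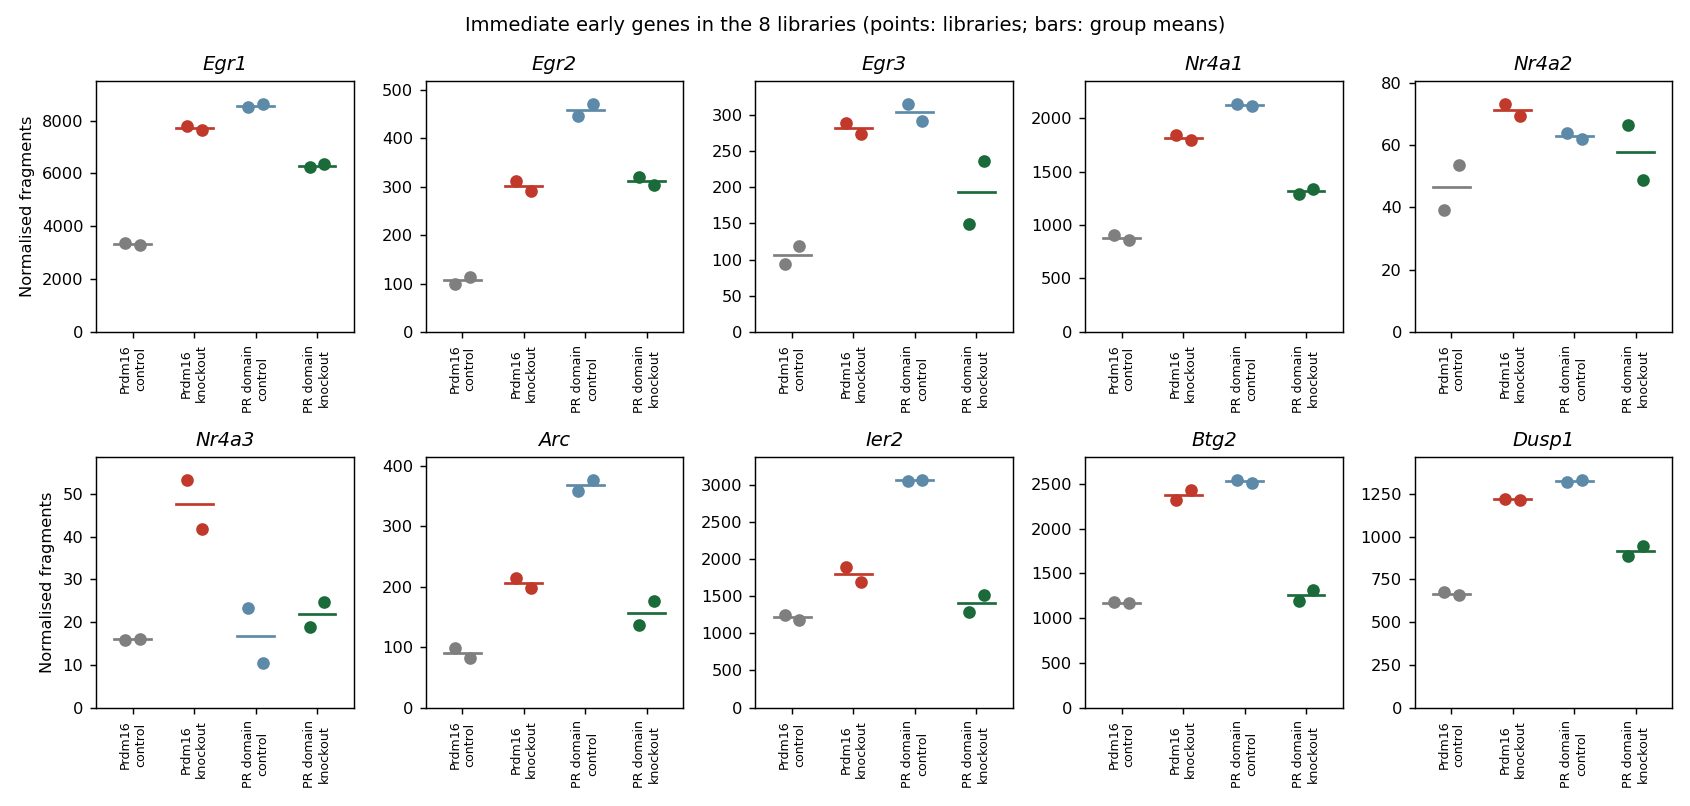
Normalised fragments (y axis, linear from 0, scaled per gene) of the 10 genes in the 4 groups (x axis); points are libraries and bars the means of 2. The Prdm16 control has the lowest mean for all 10 genes and the PR domain control the highest for 8, against 25.2% and 23.3% of all tested loci.

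The Nr4a genes encode orphan nuclear receptors whose activity is set mainly by how much of them is made. Nr4a1 (chromosome 15, 101254269 to 101274795), also called Nur77, was at 904 and 857 normalised fragments in the Prdm16 control, 1840 and 1791 in the Prdm16 knockout, with 2134 and 2118 in the PR domain control and 1290 and 1339 in the PR domain knockout. No group overlapped another, and the log2 fold changes were 1.04 ± 0.05 and -0.69 ± 0.05. Its paralogues did not share this pattern and were expressed at far lower levels per length: in the Prdm16 knockout Nr4a1 was at 91.1 FPKM, Nr4a2 at 4.36 and Nr4a3 at 0.974.

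Nr4a2 (chromosome 2, 57106830 to 57124003), also called Nurr1 and known in dopamine neurons, was at 39.2 and 53.6 normalised fragments in the Prdm16 control, 73.2 and 69.3 in the Prdm16 knockout, with 63.9 and 61.9 in the PR domain control and 66.4 and 48.8 in the PR domain knockout. The PR domain knockout overlapped both wild-type sets. By recovered fragments its level in the PR domain knockout was 91.1% of that in the control, with an exact 95% interval of 70.8 to 117% that covers counting error only, so a change was not detectable at this depth. In the Prdm16 knockout it was 152% of control (115 to 201%). Over all loci replicates differed by more than counting error, so the intervals for Nr4a2 and Nr4a3 are likely too narrow. They are a description and no test, since the same libraries chose the genes. Nr4a3 (chromosome 4, 48045153 to 48086447) stood at 15.9 and 16.0 in the Prdm16 control, 53.3 and 41.8 in the Prdm16 knockout, with 23.3 and 10.3 in the PR domain control and 18.8 and 24.8 in the PR domain knockout. It was high in the Prdm16 knockout alone, at 296% of control (194 to 461%), while the PR domain control spanned the Prdm16 control and overlapped the PR domain knockout. In the PR domain knockout Nr4a3 was at 130% of control (82.4 to 208%), so for Nr4a2 and Nr4a3 the opposite directions were not seen.

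Arc (chromosome 15, 74669083 to 74672570), known as a neuronal gene whose protein forms capsid-like shells and regulates synaptic receptors, was at 98.6 and 81.8 normalised fragments in the Prdm16 control and 215 and 198 in the Prdm16 knockout. It had 358 and 378 in the PR domain control and 137 and 177 in the PR domain knockout. It had the largest drop of the 10 genes in the PR domain knockout, at a log2 fold change of -1.23 ± 0.13, and its change in the Prdm16 knockout was 1.19 ± 0.13. Ier2 (chromosome 8, 84661331 to 84662852), a single-exon gene for a nuclear protein, stood at 1249 and 1181 in the Prdm16 control, 1890 and 1691 in the Prdm16 knockout, with 3046 and 3067 in the PR domain control and 1286 and 1517 in the PR domain knockout. The PR domain control stood apart from the other 3 groups, and the PR domain knockout lay just above the Prdm16 control. The log2 fold changes of Ier2 were 0.56 ± 0.06, the smallest of the 10 in the Prdm16 knockout, and -1.13 ± 0.06.

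Btg2 (chromosome 1, 134075170 to 134079120), an antiproliferative protein that recruits the CCR4-NOT deadenylase to messages, was at 1180 and 1167 normalised fragments in the Prdm16 control, 2320 and 2434 in the Prdm16 knockout, with 2551 and 2513 in the PR domain control and 1193 and 1320 in the PR domain knockout. The 4 groups thus fell into a low pair and a high pair. Its changes were of like size and opposite sign, at 1.02 ± 0.05 and -1.01 ± 0.05. Dusp1 (chromosome 17, 26505590 to 26562128), the phosphatase that inactivates p38, JNK and ERK kinases, stood at 675 and 656 in the Prdm16 control, 1222 and 1214 in the Prdm16 knockout, with 1316 and 1333 in the PR domain control and 884 and 944 in the PR domain knockout. No group overlapped another for Dusp1, and the changes were 0.87 ± 0.06 and -0.54 ± 0.06. The annotated span of Dusp1 overlaps 4 other gene models, among them the start of Ergic1 on the opposite strand, and fragments of either strand may have been counted there, since no source used here gives the strand setting.

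The same order of groups held for 7 of the 10 genes: PR domain control, Prdm16 knockout, PR domain knockout and Prdm16 control, from high to low. These were Egr1, Egr3, Nr4a1, Arc, Ier2, Btg2 and Dusp1, and their neighbouring groups never overlapped. Of the 16623 tested loci 366 had that order of group means. Over the 10 genes there were 30 pairs of neighbouring groups, of which 5 overlapped, all in Egr2, Nr4a2 and Nr4a3. Overlap between neighbours in the order was not counted over all tested loci, so nothing is read from these counts of overlap. Since the choice of genes rested on these libraries, the order is not independent evidence.

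Both wild-type sets were in view for every gene, and they differed from each other by more than the Prdm16 knockout differed from its control for 8 genes. The gap between the wild-type sets was also larger than that of the PR domain knockout for 9 genes. The median log2 fold change of the 10 genes was 1.30 between the PR domain control and the Prdm16 control, 1.12 with Prdm16 knocked out and -0.62 with the PR domain knocked out, where the medians over all tested loci were between -0.03 and 0.00. Set against the other wild-type set, each knockout changed sign for most genes. The Prdm16 knockout lay below the PR domain control in both libraries for 8 genes, with a median of -0.13, and the PR domain knockout lay above the Prdm16 control in both libraries for 9 genes, with a median of 0.52. For Egr1 the Prdm16 knockout was at -0.15 ± 0.03 against the PR domain control, and the PR domain knockout at 0.92 ± 0.03 against the Prdm16 control. These comparisons share libraries with those that chose the genes, and whether the wild-type sets differ by line, clone or time of harvest is not stated in the labels.

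For single pairs of groups, counts of genes without overlap are given here with their share over all tested loci. Both Prdm16 knockout libraries were above both of their controls for 10 of 10 genes (31.3% of all loci), and both PR domain knockout libraries were below both of theirs for 8 of 10 (31.9%). Both PR domain control libraries were above both Prdm16 control libraries for 9 of 10 (32.1%). The Prdm16 knockout was below the PR domain control for 8 of 10 (36.8%), and the PR domain knockout above the Prdm16 control for 9 of 10 (29.7%). The choice of genes fixed the first and second of these counts, and nothing is read from any of them.

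**Figure D2:**
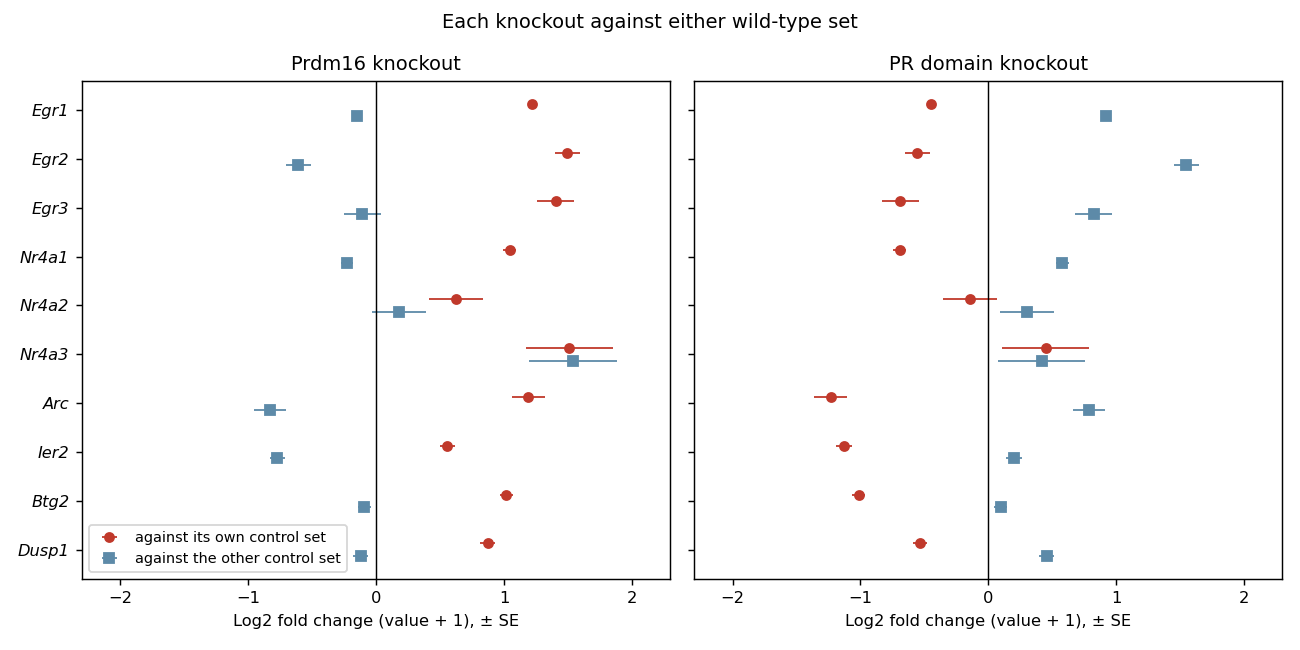
Log2 fold change (x axis, ± SE from limma) of each gene (y axis) in the Prdm16 knockout (left panel) and the PR domain knockout (right panel), against its own wild-type set (circles) and the other one (squares). The medians are 1.12 and -0.13 on the left and -0.62 and 0.52 on the right.

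Summed over the 10 genes, the libraries held 7704 and 7533 normalised fragments in the Prdm16 control, 16019 and 15653 in the Prdm16 knockout, with 18754 and 18877 in the PR domain control and 11589 and 12250 in the PR domain knockout. Egr1 alone made up 43.4 to 53.9% of these sums, more than any other of the 10 genes. Relative to the Prdm16 control, the summed level was 2.08 times as high in the Prdm16 knockout, 2.47 times in the PR domain control and 1.57 times in the PR domain knockout. Across the 8 libraries each gene was compared with the mean of the other 9, on centred log2 values. Pearson's r was highest for Dusp1 (0.993) and Nr4a1 (0.990), 0.971 for Egr1 and 0.810 for Ier2, and it was lowest for Nr4a2 (0.723) and Nr4a3 (0.272). The 8 libraries fall in 4 groups, so these values describe the order of the groups more than the variation between replicates. The genes were chosen for their changes in these same libraries, which favours a high r, so nothing is read from these values.

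By the transcript with the longest coding part in GENCODE M21, the 10 genes had 1 to 8 exons with a median of 2.5, against a median of 9 over 13567 tested protein-coding genes. The 3 Nr4a genes had 8 exons each and the other 7 genes 1 to 4. The gene span was that of the whole annotated gene and not of this transcript. Its median was 6063 bases against 24653, but Dusp1 (56539) and Nr4a3 (41295) spanned more than that. The start site used for the Dusp1 promoter lies inside the annotated span of Dusp1, so the gene is shorter when taken from that site. The median transcript length was 3010 bases, close to the 3026 of the tested genes. The motif ATTTA, the core of AU-rich elements that mark messages for rapid decay, occurred in the 3′ untranslated region of 8 of 10 genes, against 66.3% of tested genes, and at least 3 times in 7 of 10, against 34.7%. Egr3 had 7 copies and Btg2 and Nr4a3 had 5 each, while Arc and Ier2 had none. The median number per kilobase was 2.27, against 1.21.

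The AP-1 subunits, which pair into the dimers named after FOS and JUN, moved like the Egr genes. Of the 8 tested, 7 rose in the Prdm16 knockout, 6 fell in the PR domain knockout, and 7 were higher in the PR domain control than in the Prdm16 control (limma, adjusted over all loci). The shares over all tested loci were 18.0%, 10.7% and 16.3% in the same order. The median log2 fold changes of the subunits were 1.01, -0.70 and 1.13. Fos stood at 1833 and 1898 normalised fragments in the Prdm16 control, 4976 and 4943 in the Prdm16 knockout, with 6840 and 6846 in the PR domain control and 4299 and 4459 in the PR domain knockout. The order of groups for Fos was that of Egr1, with no overlap, and its changes were 1.41 ± 0.04 (limma adjusted p = 7.94e-23) and -0.64 ± 0.04 (limma adjusted p = 4.44e-14). Fosb rose by 1.22 ± 0.04 and fell by 0.75 ± 0.04 (limma adjusted p = 2.17e-19 and 6.43e-14). Jun rose by 1.21 ± 0.05 and fell by 0.31 ± 0.05 (limma adjusted p = 7.55e-19 and 1.03e-05). Atf3, a stress-induced repressor, rose by 1.29 ± 0.06 and fell by 0.83 ± 0.06 (limma adjusted p = 9.86e-18 and 9.20e-13). Fosl1 did not pass in any of these comparisons, and Fosl2 passed in the Prdm16 knockout and between the wild-type sets. The difference of the 2 knockout effects passed for 7 of 8 subunits, all with a higher effect in the Prdm16 knockout, where 8.60% of all loci passed in that direction and 7.81% in the other.

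Of 38 other immediate early genes, 26 rose and 2 fell in the Prdm16 knockout, and 1 rose and 20 fell in the PR domain knockout (limma). The shares over all tested loci were 18.0% and 21.1% in the first, and 8.48% and 10.7% in the second. Between the wild-type sets 25 of the 38 were higher in the PR domain control and 3 lower, against 16.3% and 16.7% of all loci. The median log2 fold changes of the 38 genes were 0.32, -0.36 and 0.43, smaller than those of the AP-1 subunits. A rise in the Prdm16 knockout together with a fall in the PR domain knockout was called for 6 of 8 AP-1 subunits and 13 of these 38 genes, against 0.866% of all tested loci (144). Zfp36, which encodes a protein that binds AU-rich elements and speeds message decay, rose by 1.26 ± 0.05 and fell by 0.71 ± 0.05 (limma adjusted p = 4.47e-18 and 1.01e-11). Cyr61, a secreted matrix protein, rose by 0.81 ± 0.04 and fell by 0.55 ± 0.04 (limma adjusted p = 2.92e-15 and 4.09e-11). Klf6, a zinc finger factor, rose by 0.53 ± 0.04 and fell by 0.27 ± 0.04 (limma adjusted p = 1.22e-11 and 7.76e-06).

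Some genes of that list moved in another way. Maff, a small MAF factor, rose by 1.21 ± 0.09 in the Prdm16 knockout and fell by 0.28 ± 0.09 in the PR domain knockout (limma adjusted p = 1.61e-12 and 0.0187), but its wild-type sets were at 299 and 293 and at 279 and 263 normalised fragments and did not pass the test (limma adjusted p = 0.286). The genes in the rest of this paragraph were singled out after their values were seen. Egr4, the fourth Egr gene, had 6.36 and 9.41 in the Prdm16 control and 64.5 and 37.4 in the Prdm16 knockout, a rise of 2.52 ± 0.35 (limma adjusted p = 7.87e-07). It had 22.3 and 25.8 in the PR domain control and 14.4 and 13.2 in the PR domain knockout, at -0.76 ± 0.35, which did not pass (limma adjusted p = 0.136). Klf2, a factor induced by fluid shear in endothelium, fell by 1.23 ± 0.09 in the PR domain knockout (limma adjusted p = 1.27e-11) and was at 0.02 ± 0.09 in the Prdm16 knockout (limma adjusted p = 0.865). Npas4, which responds to calcium in neurons, was at 17.0 and 19.8 in the Prdm16 control, 11.2 and 11.0 in the Prdm16 knockout, with 54.8 and 66.1 in the PR domain control and 43.1 and 28.1 in the PR domain knockout. It passed between the wild-type sets, at 1.66 ± 0.30 (limma adjusted p = 4.87e-05), and in neither knockout. Myc fell by 0.69 ± 0.13 in the Prdm16 knockout (limma adjusted p = 6.57e-05).

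**Figure D3:**
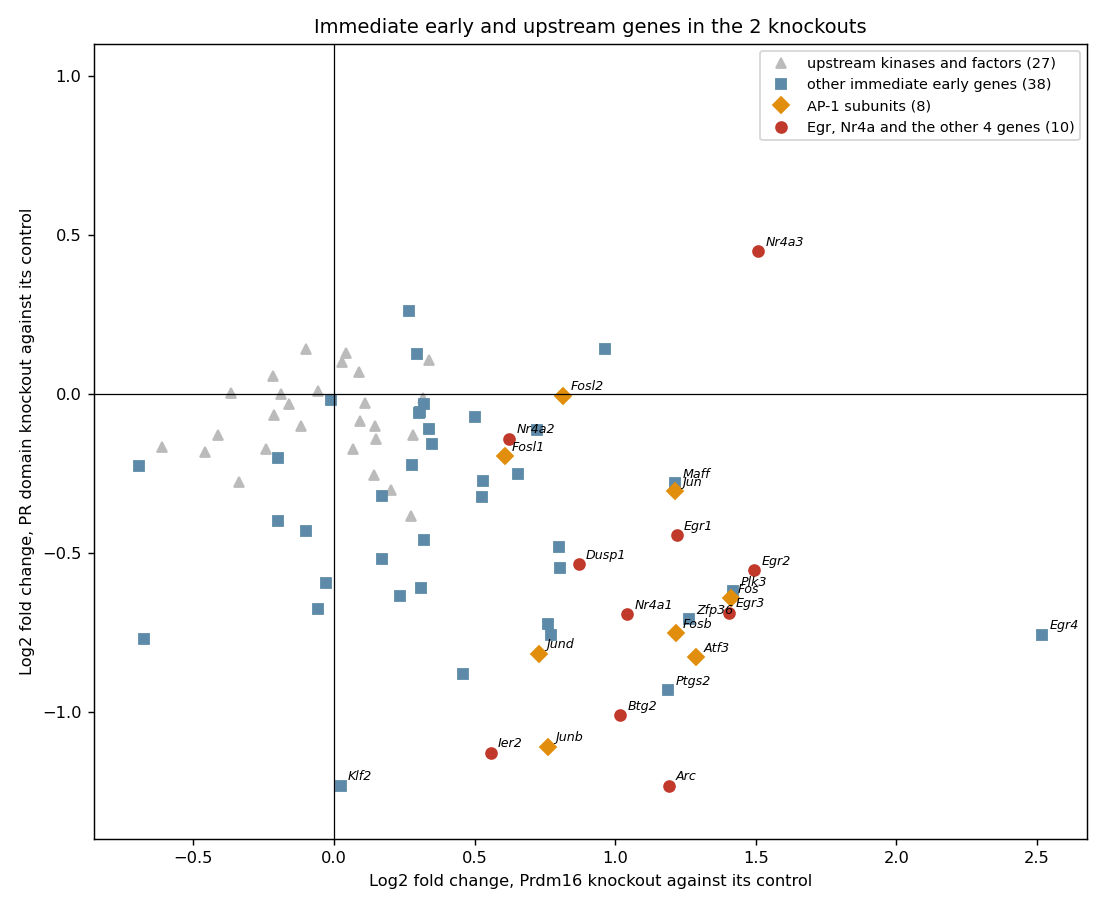
Log2 fold change of single genes in the Prdm16 knockout (x axis) and the PR domain knockout (y axis), each against its own control; circles are the 10 genes, diamonds the 8 AP-1 subunits, squares the 38 other immediate early genes and triangles the 27 upstream kinases and factors. Most circles and diamonds lie at the lower right, higher in the Prdm16 knockout and lower in the PR domain knockout, while the triangles lie closer to 0 on both axes.

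The kinases and factors upstream of these genes moved in both directions in the Prdm16 knockout. Of 27, 6 rose and 7 fell there (limma), where 18.0% of all tested loci were higher and 21.1% lower, and the median log2 fold change was 0.03. In the PR domain knockout 3 of 27 fell (limma), where 10.7% of all tested loci were lower, and the list median was -0.08. Rps6ka3, which encodes the kinase RSK2, fell by 0.41 ± 0.05 in the Prdm16 knockout (limma adjusted p = 3.03e-07), while its paralogue Rps6ka1 rose by 0.34 ± 0.06 (limma adjusted p = 4.77e-05). Elk3 fell by 0.46 ± 0.07 and Crtc1 fell by 0.61 ± 0.11 there (limma adjusted p = 9.05e-06 and 4.71e-05), and in the PR domain knockout the limma adjusted p of these 4 genes ran from 0.0826 to 0.336. Srf, singled out after its values were seen, was the gene of this list called in opposite directions, with a rise of 0.20 ± 0.07 and a fall of 0.30 ± 0.07 (limma adjusted p = 0.0147 and 0.000958). Messenger levels do not report the phosphorylation that activates these proteins.

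Genes of the negative feedback on ERK did not follow the Egr genes as a group. Of 11, 2 rose and 5 fell in the Prdm16 knockout, and 9 fell in the PR domain knockout (limma). Of all tested loci 18.0% were higher and 21.1% lower in the first, and 10.7% were lower in the second. Dusp4, a nuclear ERK and JNK phosphatase, fell in both knockouts, by 0.23 ± 0.07 and by 0.86 ± 0.07 (limma adjusted p = 0.00727 and 3.29e-11). Spry2 also fell in both, by 0.38 ± 0.09 and 0.46 ± 0.09 (limma adjusted p = 0.00055 and 0.000133), and so did Spred3, by 1.59 ± 0.15 and 0.43 ± 0.15 (limma adjusted p = 8.78e-10 and 0.042). Dusp5 rose by 0.21 ± 0.08 and fell by 0.53 ± 0.08 (limma adjusted p = 0.0406 and 9.08e-06).

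Among 11 partners and paralogues of the 10 genes, 4 rose and 1 fell in the Prdm16 knockout, and 1 rose and 1 fell in the PR domain knockout (limma). The shares over all tested loci were 18.0% higher and 21.1% lower in the first, and 8.48% and 10.7% in the second. Nab2, a corepressor and target of EGR proteins, rose by 0.41 ± 0.09 with Prdm16 knocked out (limma adjusted p = 0.000425) and was at 0.08 ± 0.09 in the PR domain knockout (limma adjusted p = 0.612). Tob1, a relative of Btg2, rose by 0.55 ± 0.11 in the Prdm16 knockout (limma adjusted p = 0.000138). Cnot7, a deadenylase bound by BTG and TOB proteins, fell in both, by 0.37 ± 0.05 and 0.44 ± 0.05 (limma adjusted p = 8.70e-07 and 1.30e-07). Rxrg, whose product belongs to the retinoid X receptors that pair with NR4A1 and NR4A2, rose in both, by 1.24 ± 0.35 and 1.15 ± 0.35 (limma adjusted p = 0.00563 and 0.0189). Its values were low, at 6.36 and 8.46 normalised fragments in the Prdm16 control and 18.6 and 18.7 in the Prdm16 knockout. It had 13.2 and 21.7 in the PR domain control and 38.6 and 38.9 in the PR domain knockout.

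A second branch of SRF targets, cytoskeletal genes driven through MRTF coactivators, had 2 of 10 higher and 2 lower in the Prdm16 knockout and 1 higher and 4 lower in the PR domain knockout (limma). Of all tested loci 18.0% were higher and 21.1% lower in the first, and 8.48% and 10.7% in the second. Acta2, smooth muscle actin, rose by 0.18 ± 0.04 and fell by 0.86 ± 0.04 (limma adjusted p = 0.00016 and 2.62e-17). Flna fell by 0.31 ± 0.03 and Myl9 rose by 0.45 ± 0.09 with Prdm16 knocked out (limma adjusted p = 1.62e-09 and 0.000198), and Tpm1 fell by 0.19 ± 0.03 in the PR domain knockout (limma adjusted p = 0.000131). Of 10 heat shock genes, 4 fell when Prdm16 was knocked out and 6 when the PR domain was (limma). Dnajb1 was at 0.09 ± 0.07 with Prdm16 knocked out (limma adjusted p = 0.348) and fell by 0.67 ± 0.07 in the PR domain knockout (limma adjusted p = 1.75e-08), and Hsp90aa1 fell by 0.21 ± 0.06 and 0.28 ± 0.06 (limma adjusted p = 0.00468 and 0.0005). Hsph1 fell by 0.39 ± 0.07 in the Prdm16 knockout and Hspd1 by 0.23 ± 0.06 (limma adjusted p = 5.78e-05 and 0.00245).

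Outside the 10 genes, the loci with the most similar pattern were ranked by Pearson's r with their mean centred log2 values over the 8 libraries, among 10151 loci with a mean of at least 50 and 1 gene symbol. The first 10 were Txnip (0.988), Cyr61 (0.988), Fosb (0.986), Col9a2, Pknox1, Plekha2, Jun (0.968), Ccdc102a, Cdip1 and Ptgs2 (0.961). Of these, 4 are immediate early genes of the lists used here. Txnip, which encodes an inhibitor of thioredoxin, had 2541 ± 40.2 normalised fragments (SD, n = 2) in the Prdm16 control and 3360 ± 48.5 in the Prdm16 knockout. It had 3658 ± 68.2 in the PR domain control and 2983 ± 66.7 in the PR domain knockout, a narrower range than that of Cyr61, at 1905 ± 4.43, 3330 ± 61.5, 3562 ± 106 and 2436 ± 121. Since the libraries form 4 groups, likeness here means a similar order and spacing of 4 group means.

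Markers of the cell types that embryoid bodies can hold also differed between the groups. For comparison with all marker counts given here, 18.0% of all tested loci were higher and 21.1% lower in the Prdm16 knockout. In the PR domain knockout 8.48% were higher and 10.7% lower. Of 12 macrophage markers, 11 rose with Prdm16 knocked out and 12 with the PR domain knocked out (limma). The exception in the first, C1qa, was 38.5 ± 2.55 normalised fragments in the Prdm16 control and 42.1 ± 15.9 in the knockout (SD, n = 2 libraries each). The summed level of the list was 1555 to 1614 in the Prdm16 control, 3469 to 3558 in the Prdm16 knockout, 4785 to 4926 in the PR domain control and 9549 to 9554 in the PR domain knockout. Csf1r rose by 1.18 in the first and 1.02 in the second (limma adjusted p = 2.77e-17 and 2.47e-15). The sum was lowest in the Prdm16 control, as for the 10 genes, but highest in the PR domain knockout, where the 10 genes were lower than in its control. Of 7 erythroid markers, 4 rose and 1 fell in the first knockout and 6 rose in the second, with sums of 7174 to 7271, 10175 to 10197, 9922 to 10506 and 19640 to 19946 in the same order of groups. Of 10 fibroblast markers, 5 rose and 3 fell in the first and 7 rose and 2 fell in the second, with sums of 79125 to 79137, 108325 to 110680, 108608 to 109748 and 143654 to 144288.

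The sums of the cardiomyocyte and of the endothelial markers were highest in the PR domain control. There 10 of 11 and 10 of 10 of their tested loci had their highest mean, against 23.3% of all tested loci. The exception, Nppa, averaged 16.9 there and 38.1 in the PR domain knockout. Of 11 tested loci of cardiomyocyte markers, 8 fell and 1 rose in the Prdm16 knockout and 10 fell and 1 rose in the PR domain knockout (limma). Their sum was 10018 to 10500 in the Prdm16 control, 8253 to 8391 in the Prdm16 knockout, 23193 to 23644 in the PR domain control and 10915 to 11222 in the PR domain knockout. Of 10 endothelial markers, 6 fell and 2 rose in the first and all 10 fell in the second, with sums of 5771 to 5813, 5251 to 5376, 7909 to 8087 and 5617 to 5663. Both sums thus moved with the 10 genes in the PR domain knockout and between the wild-type sets, and against them in the Prdm16 knockout. The sum of the neural progenitor markers, given below, did the same. Of the 9 tested neural progenitor markers, however, 2 were higher and 4 lower in the PR domain control than in the Prdm16 control (limma). The shares over all tested loci were 16.3% and 16.7%.

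The 11 endoderm markers were lower in the PR domain control than in the Prdm16 control. Their sum was 46991 to 49136 in the Prdm16 control and 97671 to 97963 in the Prdm16 knockout, but 9738 to 10250 in the PR domain control and 17899 to 18394 in the PR domain knockout. Of the 11, 9 rose in the Prdm16 knockout, 10 rose and 1 fell in the PR domain knockout, and all 11 passed between the wild-type sets, with a median log2 difference of -2.33 (limma). Of 9 tested neural progenitor markers, 8 fell and 1 rose in the first knockout and 4 fell in the second, with sums of 1709 to 1749, 1047 to 1072, 1976 to 2039 and 1363 to 1386. Pou5f1, a gene of pluripotent cells, was 267 in the Prdm16 control and 8.69 in the PR domain control (means of 2), and the 3 tested pluripotency markers had a median log2 difference of -3.41 between the wild-type sets. The sum of the 6 pluripotency markers ran from 551 to 592 in the Prdm16 control, 294 to 320 in the Prdm16 knockout, 150 to 151 in the PR domain control and 48.4 to 69.5 in the PR domain knockout. Hes5 and Dppa3 were at 0 in both Prdm16 knockout libraries, and no other marker was at 0 in a whole group. No summed marker list had the order of groups of the 10 genes, and the part of cell makeup in their differences was not tested.

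**Figure D4:**
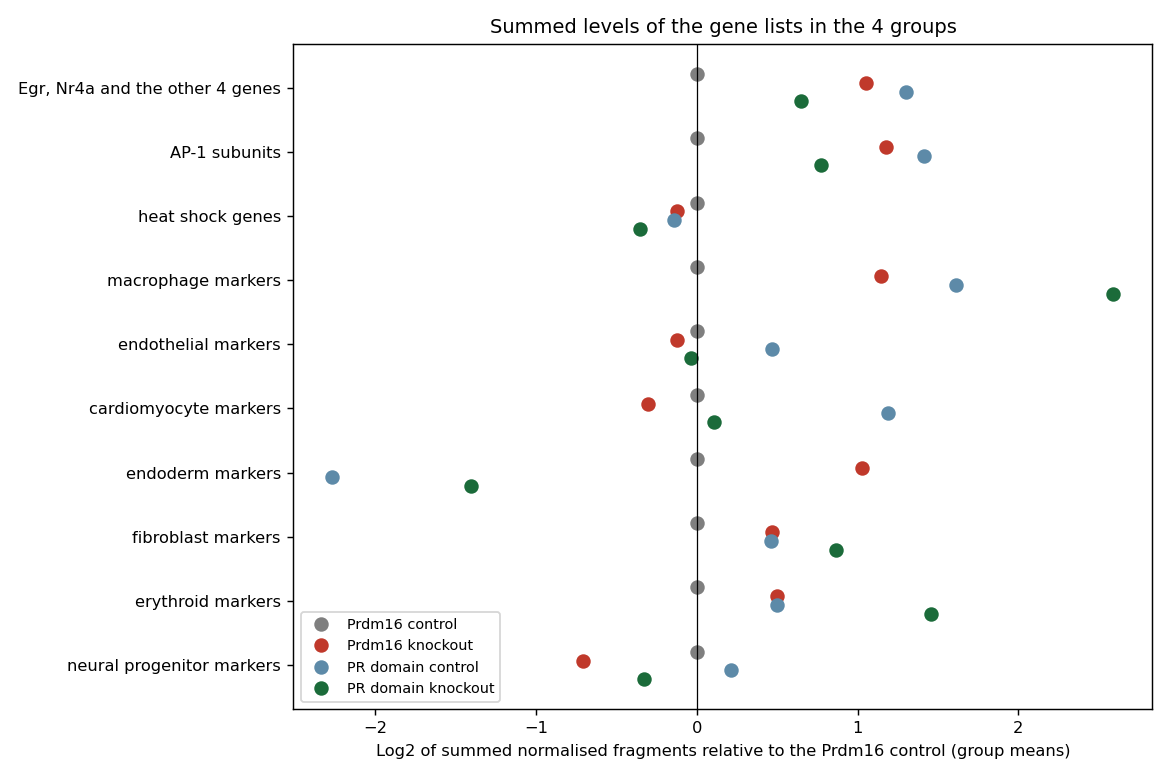
Summed normalised fragments of gene lists, as log2 of the group mean relative to the Prdm16 control (x axis), with 1 point a group, offset vertically for sight. The sums of the 10 genes and of the AP-1 subunits share 1 order of groups, at 2.08, 2.47 and 1.57 times and 2.26, 2.66 and 1.71 times the Prdm16 control in the knockout of Prdm16, the second wild-type set and the PR domain knockout, while no marker list shown has it.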

How the data were processed

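Tools listed in the submitters' processing notes are Cufflinks 2.2.1, TopHat2 2.1.1, SAMtools 1.5 and deepTools, with mm10 as build, without saying what each did; no source used here gives the annotation release or strand setting. The deposited signal values are locus fragments already scaled by the authors with 1 factor a library, per the values: once divided by the smallest step, 99.99 to 100% were whole within a tolerance of 0.1. The FPKM values, which the authors also deposited, served for levels per length and for 1 alternative. Lines of the same locus were merged, giving 53068 loci, and 787 without a gene name, with 1.88 to 2.53% of fragments, were left out. Replicates differed by more than sampling noise (chi-square per degree of freedom of 1.38 to 2.15).

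A limma-trend model (limma 3.58.1, R 4.3.3) of the 4 group means was fitted to log2(value + 1) in all 8 libraries for loci with at least 10 normalised fragments in at least 2 libraries. The fit had 4 residual degrees of freedom a locus and a prior of 25.4 taken from all loci by level. Each SE and p-value thus rests more on loci of similar level than on the gene's own replicates. Benjamini-Hochberg adjusted p below 0.05 over all 16623 loci counted as a call. The script was tested on simulated data. The genes and all lists were chosen with earlier results of these data known. Named genes were the 10 genes, up to 4 of each list with the smallest adjusted p, the 10 loci of most similar pattern and up to 2 of the most abundant markers a cell type. Others are said to have been singled out, or were named after their values were seen. The latter are exceptions to a count (Fosl1, Fosl2, C1qa and Nppa) or genes at 0 in a group (Hes5 and Dppa3). Alternatives included edgeR 4.0.16 on the recovered fragments, which called 6470 loci for Prdm16 and 3418 for the PR domain, and DESeq2 1.42.0. Intervals are exact binomial and cover counting error only.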

Additional observations from a re-analysis of the deposited data

Results flagged for a closer look

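For 8 of the 10 genes both Prdm16 knockout libraries were above their controls and both PR domain knockout libraries below theirs. This difference was not tested because it chose the genes. The first alone held for 31.3% of all tested loci and the second for 31.9%. Their joint share was not counted, so nothing is read from the count. The Prdm16 knockout effect minus the PR domain knockout effect, on the log2 scale, was 1.66 for Egr1, 2.05 for Egr2, 2.09 for Egr3 and 1.74 for Nr4a1. It was 2.42 for Arc, 1.69 for Ier2, 2.03 for Btg2 and 1.41 for Dusp1.

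Over all tested loci, the difference of the 2 effects passed limma's test at 2728. It passed for 7 of 8 AP-1 subunits and 28 of 38 other immediate early genes, all with a higher effect in the Prdm16 knockout. Only some of the genes that passed are listed here, mostly genes named for a small adjusted p in the same libraries. Among the AP-1 subunits the difference was 2.05 for Fos, 1.97 for Fosb, 1.52 for Jun and 2.12 for Atf3. Among other immediate early genes it was 1.97 for Zfp36, 1.35 for Cyr61, 1.49 for Maff and 0.80 for Klf6. In the ERK feedback list it was 0.63 for Dusp4 and 0.74 for Dusp5, with both knockout effects of Dusp4 below 0, and -1.15 for Spred3, whose fall was larger in the Prdm16 knockout. It was -0.28 for Rps6ka3, -0.44 for Crtc1 and 0.61 for Tob1. Among the cytoskeletal genes it was 1.04 for Acta2, -0.27 for Flna, 0.23 for Tpm1 and 0.45 for Myl9, and 0.76 was found for the chaperone gene Dnajb1.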

How the results depend on the processing

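Over 760 alternative values of the 10 genes, 6 changed sign, all in Nr4a2 and Nr4a3, whose fragments were few. Nr4a2 in the PR domain knockout went from -0.14 to 0.077 without PR domain knockout replicate 2. Nr4a3 there went from 0.45 to -0.10 without PR domain control replicate 2 and ran up to 1.00 without replicate 1. Between the wild-type sets Nr4a3 went from -0.03 to 0.065 with FPKM, 0.52 without PR domain control replicate 2 (-0.58 without replicate 1), 0.10 with edgeR and 0.093 with DESeq2. Of 1672 alternative values of the other named genes none changed sign, 99 no longer passed and 10 newly passed. The median of the 10 genes in the Prdm16 knockout was 0.93 with FPKM and 1.03 to 1.16 when 1 library was left out. In the PR domain knockout it was -0.57 with edgeR, -0.57 with DESeq2 and -0.65 to -0.54 with 1 library left out. Between the wild-type sets it was 1.19 with FPKM, and between the knockouts, where it was -0.41, it was -0.36 with total-fragment scaling and -0.48 to -0.33 with 1 library left out.

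Calls over all loci were fewest with FPKM (2244 in the Prdm16 knockout, 582 in the PR domain knockout, 1717 between the wild-type sets, 2210 between the knockouts and 199 for the difference of effects) and next with DESeq2 (3983, 1797, 3388, 3935 and 1179). The difference was called at 2728 loci and at 1642 with no filter on low values. Of the other immediate early genes 12 rose in the Prdm16 knockout and 8 fell in the PR domain knockout with FPKM, against 26 and 20. The causes were not tested. The AP-1 counts of 7 and 6 kept within 1.5 times under every alternative run. Same-numbered libraries did not deviate together (correlations of -0.127 in the Prdm16 groups and 0.0117 in the PR domain groups over 12118 loci), so the numbers were not taken to pair samples, and a replicate block gave 6501 and 3210 calls in the 2 knockouts against 6502 and 3190. Crossed pairing in the Prdm16 groups, added after seeing the data, gave 6574 and 3290. The low counts of Nr4a2 and Nr4a3 limit what can be seen of them at this depth.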
